A study of Homo sapiens with 8 samples.

Results

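The genes described are 10 AP-1 and immediate early transcription factor genes, 10 of the 23193 genes counted in the series. They are the FOS family (FOS, FOSB, FOSL1 and FOSL2), the JUN family (JUN, JUNB and JUND), the related factors ATF3 and BATF3, and EGR1. They were chosen by symbol, as the rows of the gene body and TSS tables that carry one of these names, and each name matched 1 row in both tables. PRO-seq, which maps the positions of engaged RNA polymerase II (RNAPII) by a nuclear run-on, was performed in HCT116 cells, a colorectal carcinoma line, with 2 replicates in each of 4 groups. The groups were WT cells in normoxia, WT cells after 90 min of hypoxia at 1% O2, and HIF1A-/- cells in either condition, and all cells received the DMSO vehicle. HIF1A-/- cells carry a disruption of HIF1A, which encodes the oxygen-regulated subunit of the HIF1 transcription factor, and they are a single derived line, so that a difference from WT cells and a difference between lines of other origin cannot be told apart. The replicates were independent biological samples of each line, from separately prepared nuclei.

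AP-1 is a dimer of basic leucine zipper (bZIP) proteins in which a JUN protein pairs with a FOS protein, another JUN protein or an ATF-type partner. Immediate early genes, such as FOS, are transcribed within minutes of a growth factor or stress signal. Most of their promoters are already accessible and often hold paused RNAPII. Their products go on to regulate growth, invasion and stress genes in epithelial tumours. EGR1, a zinc finger factor, is induced by the same MAP kinase signals through serum response factor, which binds CArG boxes in its promoter.

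Gene body regions ran from 1001 bp past the TSS to the end of the gene, and TSS regions from 50 bp before to 500 bp past it, a length of 551 bp. Total counts were 18125234 to 23622392 in gene bodies and 2783581 to 5966348 in TSS regions per library. Values are counts per 1000000 reads (CPM) of the total of their own table, and a gene was called at a false discovery rate (FDR) of 10%. HIF1A itself was read at 129.0 to 172.1 CPM over its gene body in all 8 libraries, but the disruption spans a few exons and does not remove the gene from transcription, so these reads do not check the genotype. Of 6 hypoxia reference genes fixed as a list (PFKFB4, PDK1, EGLN3, ANKRD37, CA9 and VEGFA), 5 were called higher in WT hypoxia. All 6 had a fold change above 0 there (median log2 value 2.41, 0.431% of all genes called). In HIF1A-/- cells 0 were called (0% of all genes), and 5 of the 6 were above 0 (median 0.09). Of 8 epithelial markers, EPCAM, CDH1, KRT8, KRT18 and CDX2 were read at 13.1 CPM or more in every library. The others were lower, with LGR5 at 2.05 to 8.42 CPM, KRT20 at 0.105 to 10.3 CPM and the villus marker VIL1 at most 0.635 CPM. Among 7 markers of other cells, 6 stayed at or below 2.07 CPM, and COL1A1 was read at 19.0 to 50.3 CPM. KRT20, a marker of differentiated colon epithelium, was 4.32 higher on the log2 scale in HIF1A-/- than in WT cells in normoxia (adjusted p = 0.0206, edgeR). This value rests on few WT reads, 4 and 11 in the WT libraries against 126 and 218 in the HIF1A-/- libraries.

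The bases upstream of the start sites of FOSL2 and EGR1, which carry the calls reported below, are shown with those of FOS, the founding member of the family, for comparison. All 3 were read from GRCh37, the build of the deposited tables, on the plus strand and 5′ to 3′. Positions are counted back from the TSS used in the tables, and capitals mark each match to an HRE core (ACGTG or GCGTG on either strand, the letters HIF binds) or, in EGR1, to a CArG box.
FOSL2, positions -200 to -110 (chr2:28615578-28615668): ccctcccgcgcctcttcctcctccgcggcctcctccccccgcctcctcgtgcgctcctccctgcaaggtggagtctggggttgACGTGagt
EGR1, positions -160 to -61 (chr5:137801020-137801119): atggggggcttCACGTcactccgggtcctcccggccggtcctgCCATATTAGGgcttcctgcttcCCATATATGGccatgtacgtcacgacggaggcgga
FOS, positions -160 to -61 (chr14:75745320-75745419): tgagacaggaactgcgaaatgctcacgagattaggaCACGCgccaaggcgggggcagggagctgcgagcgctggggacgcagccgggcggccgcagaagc

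In the 250 bases upstream of the TSS, 6 of the 10 genes held an HRE core, a match found in 47.0% of all 23193 such windows. FOSL2 alone among the 10 held an AP-1 site (TGACTCA or TGAGTCA, either strand), at positions -49 to -43, against 3.54% of all windows. The TSS used for FOSL2 lies 53 bp downstream of the canonical start in GENCODE, so this site lies downstream of that start and not in front of it. For the other genes apart from ATF3, the TSS used lay between 145 bp upstream and 12 bp downstream of the canonical start. EGR1 alone held CArG boxes, 2 of them, against 1.1% of windows with any, and JUND alone held a full CRE (TGACGTCA, at positions -166 to -159), against 1.73%. A TATAA sequence on the gene's strand was present in FOSB, JUNB and ATF3, and in 11.8% of all windows. These are matches of letters within a fixed window and not measured binding, and an element outside the window is not counted. For FOS the TSS used lies 51 bp upstream of the canonical start, so the bases between them were not searched.

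In WT cells, hypoxia raised gene body signal at 1 of the 10 genes, FOSL2, while 0.431% of the 16686 gene bodies tested were called. The fold change was above 0 for all 10, with a median log2 value of 0.42 against -0.02 over all genes. The libraries of the hypoxia group both exceeded the libraries of the normoxia group for 5 of them (FOSB, FOSL2, JUNB, ATF3 and BATF3), an arrangement found in 19.8% of all genes. For HIF1A-/- cells, 0 of the 10 were called, as were 0% of all genes. At an unadjusted p under 0.05 there were 347 genes, of which FOSB was the single member, and DESeq2 also called 0 of the 10. The median of the 10 in these cells was 0.21 against 0.00 over all genes, and 5 did not overlap between the groups and were higher in hypoxia (FOSB, FOSL2, JUNB, JUND and EGR1), as were 14.4% of genes. JUN was the 1 member whose libraries were both lower in hypoxia, as for 9.15% of genes.

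Between genotypes in normoxia, FOSL2 was again the 1 gene of the 10 called, higher in HIF1A-/- cells, where 1.78% of all gene bodies were called. The 2 HIF1A-/- libraries lay above both WT libraries for 6 of the genes (FOS, FOSL2, JUN, JUND, ATF3 and EGR1), as for 16% of all genes, and below them for FOSB, as for 17%. The median log2 difference of the 10 was 0.44, against -0.01 over all genes. In hypoxia 0 of the 10 were called between genotypes by edgeR or DESeq2, with 4.26% of all genes called by edgeR. FOSB was the 1 member among 2628 genes at an unadjusted p under 0.05 (edgeR). In HIF1A-/- cells 4 (FOS, FOSL2, JUND and EGR1) were higher without overlap, as were 23.6% of genes, and FOSB was lower, as were 22.6%. The comparisons share libraries in pairs, so that a low group in one of them also enters another.

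**Figure D1:**
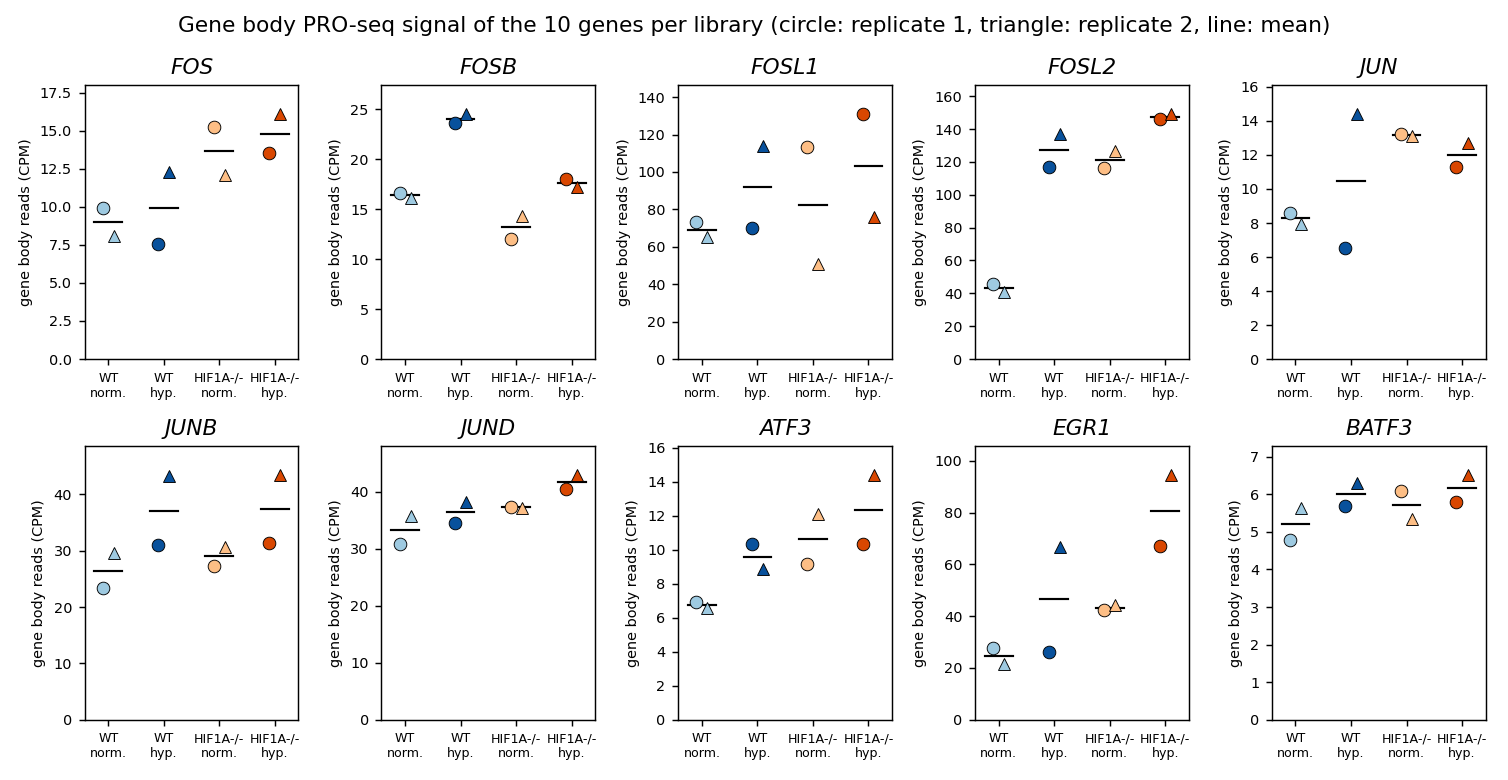
Gene body PRO-seq signal (CPM, axes from 0) of each gene in WT and HIF1A-/- HCT116 cells in normoxia and hypoxia, with 1 point per library (circles, replicate 1 and triangles, replicate 2) and a line at the mean of the 2. FOSL2 is low in the WT normoxia libraries alone, at 45.4 and 40.7 CPM, and FOSL1 and EGR1 show wide gaps between replicates.

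FOSL2 encodes Fra-2, a FOS family protein without the strong activation domain of FOS. Its gene body (chr2:28616779-28637516, plus strand, 20738 bp, 16.4% of it exonic) was read at 45.4 and 40.7 CPM in WT cells in normoxia, rising to 116.8 and 137.1 CPM in hypoxia. The HIF1A-/- libraries held 116.0 and 126.5 CPM (normoxia) and 145.8 and 149.0 CPM (hypoxia). The WT normoxia libraries were thus the low group, and the HIF1A-/- normoxia libraries already lay within or next to the range of WT cells in hypoxia. The rise in WT cells was 2.88-fold (log2 1.53, SE 0.133, adjusted p = 0.00633, edgeR). In HIF1A-/- cells the log2 fold change was 0.24 (SE 0.129, adjusted p = 1, edgeR). The excess of HIF1A-/- over WT cells was 2.81-fold in normoxia (log2 1.49, SE 0.133, adjusted p = 0.00232, edgeR) and 1.15-fold in hypoxia (adjusted p = 0.495, edgeR).

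The response of FOSL2 to hypoxia was larger in WT than in HIF1A-/- cells by 1.28 on the log2 scale (SE 0.185), a difference that was not called (adjusted p = 0.156, edgeR, 0 of 10 members and 0.0539% of all genes called). It was called by DESeq2 and by edgeR with no filter on low counts, and in 0 of the 8 fits that left out 1 library. The shares of all genes called by DESeq2 and without the filter are not given here, so these 2 calls are not set against them. With the replicate number as a block the difference was 1.29 (adjusted p = 0.0168, edgeR), and FOSL2 was then the 1 member among 0.384% of genes called. The call in WT cells was lost when either WT normoxia library was left out, with adjusted p = 0.116 without replicate 1 and 0.155 without replicate 2, while the log2 fold change stayed at 1.63 and 1.44. The genotype difference in normoxia was called with each of the 8 libraries left out in turn. A lncRNA, FOSL2-AS1, is annotated on the opposite strand over 769 bp of the gene body and all 551 bp of the TSS region.

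FOS, the founding member and a protein of very short life, is a compact gene (gene body chr14:75746481-75748937, plus strand, 99.8% exonic). WT cells gave 9.95 and 8.06 CPM without hypoxia and 7.58 and 12.3 CPM with it, and HIF1A-/- cells gave 15.3 and 12.1 CPM without and 13.5 and 16.1 CPM with it. The WT groups overlapped, and the HIF1A-/- libraries were above the WT libraries of the same condition in normoxia and, at 12.3 against 13.5 CPM, narrowly so in hypoxia. The log2 difference between genotypes was 0.61 (SE 0.283) in normoxia and 0.56 (SE 0.281) in hypoxia, neither called (adjusted p = 0.603 and 0.386, edgeR). The response to hypoxia was 0.11 (SE 0.284) in WT and 0.06 (SE 0.279) in HIF1A-/- cells.

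FOSB, which is spliced to a full-length activator and a truncated form, had close replicates (gene body chr19:45972253-45978437, plus strand). Its WT signal was 16.7 and 16.2 CPM under normoxia and 23.6 and 24.5 CPM under hypoxia. Its HIF1A-/- signal was 12.0 and 14.3 CPM under normoxia and 18.1 and 17.2 CPM under hypoxia. Hypoxia libraries were above normoxia libraries in both lines, and FOSB was the 1 member whose HIF1A-/- libraries were below WT libraries in both conditions. The log2 fold change in hypoxia was 0.52 (SE 0.164) in WT cells and 0.38 (SE 0.165) in HIF1A-/- cells, neither called (adjusted p = 0.850 and 1, edgeR). The genotype difference in hypoxia was -0.46 (SE 0.164, adjusted p = 0.231, edgeR). With the replicate block both the WT response (0.52, adjusted p = 0.0909, edgeR) and the genotype difference in hypoxia (-0.46, adjusted p = 0.0453, edgeR) were called, where 5.51% and 28.2% of all genes were. ERCC1 is annotated on the opposite strand along the whole region counted for FOSB. The libraries were strand-specific per the labels, but the strand setting of the final counts is not given in the sources used here, so a share of antisense reads cannot be told apart.

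FOSL1 encodes Fra-1, an AP-1 subunit linked to invasive epithelial tumours (gene body chr11:65659606-65666996, minus strand). WT libraries held 73.4 and 65.0 CPM (normoxia) and 70.2 and 113.8 CPM (hypoxia). HIF1A-/- libraries held 113.5 and 50.8 CPM (normoxia) and 130.8 and 75.8 CPM (hypoxia). Replicates of the same HIF1A-/- group differed more than the group means did, and the groups overlapped in each of the 4 pairwise comparisons. No comparison was called (SE of the log2 values 0.436 to 0.437 in the 4 pairwise comparisons), and without HIF1A-/- normoxia replicate 1 the genotype difference in normoxia turned from 0.27 to -0.47, so that a change of this gene was not detectable with these replicates.

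JUN, the first JUN family member and its strongest activator, is an intronless gene (gene body chr1:59246462-59248784, minus strand). Normoxia libraries held 8.60 and 7.94 CPM (WT) and 13.2 and 13.1 CPM (HIF1A-/-), and hypoxia libraries held 6.53 and 14.4 CPM (WT) and 11.3 and 12.7 CPM (HIF1A-/-). The WT hypoxia libraries spanned the whole range of the other 6. The log2 difference between genotypes in normoxia was 0.67 (SE 0.333, adjusted p = 0.655, edgeR), and the response to hypoxia was 0.31 (SE 0.333) in WT and -0.17 (SE 0.329) in HIF1A-/- cells. Without WT hypoxia replicate 2 the WT response was -0.35.

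JUNB, which can oppose JUN at some promoters, has the shortest gene body of the set (chr19:12903310-12904125, plus strand, 816 bp). Signal in normoxia was 23.3 and 29.6 CPM in WT and 27.3 and 30.7 CPM in HIF1A-/- cells. Signal in hypoxia was 31.0 and 43.2 CPM in WT and 31.3 and 43.4 CPM in HIF1A-/- cells. The values of the 2 lines were close in either condition, and replicate 2 was the higher in every group. The log2 fold change in hypoxia was 0.46 (SE 0.211, adjusted p = 0.897, edgeR) in WT and 0.32 (SE 0.210, adjusted p = 1, edgeR) in HIF1A-/- cells, and the genotype difference in hypoxia was -0.01 (SE 0.209). HOOK2 is annotated on the opposite strand over the whole region counted for JUNB.

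JUND, the JUN member that is expressed steadily in resting cells, had a small range (gene body chr19:18390503-18391465, minus strand). WT values were 30.9 and 35.8 CPM (normoxia) and 34.5 and 38.2 CPM (hypoxia), and HIF1A-/- values were 37.4 and 37.1 CPM (normoxia) and 40.5 and 42.9 CPM (hypoxia). Its log2 differences lay between 0.10 and 0.19 in the 4 pairwise comparisons, with SEs of 0.140 to 0.141, and none was called.

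ATF3, a stress-induced bZIP repressor, had few reads, 119 to 292 per library (gene body chr1:212789360-212794119, plus strand). Normoxia values were 6.96 and 6.57 CPM in WT and 9.18 and 12.1 CPM in HIF1A-/- cells. Hypoxia values were 10.4 and 8.85 CPM in WT and 10.3 and 14.4 CPM in HIF1A-/- cells. The WT normoxia libraries were the lowest of the 8. The log2 fold change was 0.48 (SE 0.236, adjusted p = 0.897, edgeR) in WT cells in hypoxia, and the genotype difference in normoxia was 0.65 (SE 0.236, adjusted p = 0.421, edgeR). The TSS used in the tables lies 6256 bp downstream of the canonical start of the gene in GENCODE and 5 bp upstream of the start of a shorter transcript, so the TSS region of ATF3 does not cover the canonical promoter.

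BATF3, a small bZIP factor best known from dendritic cells, was the weakest of the 10 (gene body chr1:212859758-212872326, minus strand). WT cells had 4.78 and 5.63 CPM before and 5.69 and 6.31 CPM after hypoxia, and HIF1A-/- cells had 6.09 and 5.34 CPM before and 5.80 and 6.51 CPM after, from 99 to 149 reads per library. Its log2 differences lay between 0.03 and 0.18 with SEs of 0.244 to 0.246, and none was called.

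EGR1 gene body signal (chr5:137802181-137805004, plus strand) in WT cells was 27.6 and 21.4 CPM under normoxia, and 26.3 and 66.8 CPM under hypoxia. The HIF1A-/- values were 42.4 and 44.3 CPM under normoxia, and 67.0 and 94.5 CPM under hypoxia. WT hypoxia replicate 1 lay within the WT normoxia values and replicate 2 beside the lower HIF1A-/- hypoxia library. The log2 fold change in hypoxia was 0.89 (SE 0.378) in WT and 0.85 (SE 0.373) in HIF1A-/- cells, and the genotype differences were 0.82 (SE 0.378) in normoxia and 0.78 (SE 0.373) in hypoxia. None was called (adjusted p = 0.897, 1, 0.597 and 0.364, edgeR). Without WT hypoxia replicate 2 the WT response was 0.09 and the genotype difference in hypoxia 1.58, which was then called (adjusted p = 0.0783, edgeR). Without WT hypoxia replicate 1 they were 1.41 and 0.29.

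At the TSS, EGR1 was the 1 member called in any comparison. Its TSS region (chr5:137801130-137801680), which follows the 2 CArG boxes shown above, held 111.6 and 50.9 CPM (normoxia) and 67.1 and 83.1 CPM (hypoxia) in WT cells. It held 217.0 and 162.5 CPM (normoxia) and 210.8 and 177.2 CPM (hypoxia) in HIF1A-/- cells. All 4 HIF1A-/- libraries were above all 4 WT libraries, and within each line the conditions overlapped. The genotype difference in hypoxia was 2.54-fold (log2 1.35, SE 0.287, adjusted p = 0.0592, edgeR), in a comparison that called 1.1% of 15212 TSS regions, and this call was lost when any 1 of the 4 hypoxia libraries was left out (adjusted p = 0.137 to 0.394, edgeR). In normoxia 0 members and 0.657% of regions were called, with 3 members among 1216 regions at an unadjusted p under 0.05 (edgeR). The genotype difference of EGR1 in normoxia was 2.35-fold (log2 1.23, SE 0.288, adjusted p = 0.134, edgeR). This value was 1.90 without WT normoxia replicate 1, and then called (adjusted p = 0.0197, edgeR), 0.79 without WT normoxia replicate 2, and 1.44 without HIF1A-/- normoxia replicate 2, also called (adjusted p = 0.0301, edgeR). With the replicate block the normoxia difference was called as well (1.26, adjusted p = 0.000188, edgeR).

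**Figure D2:**
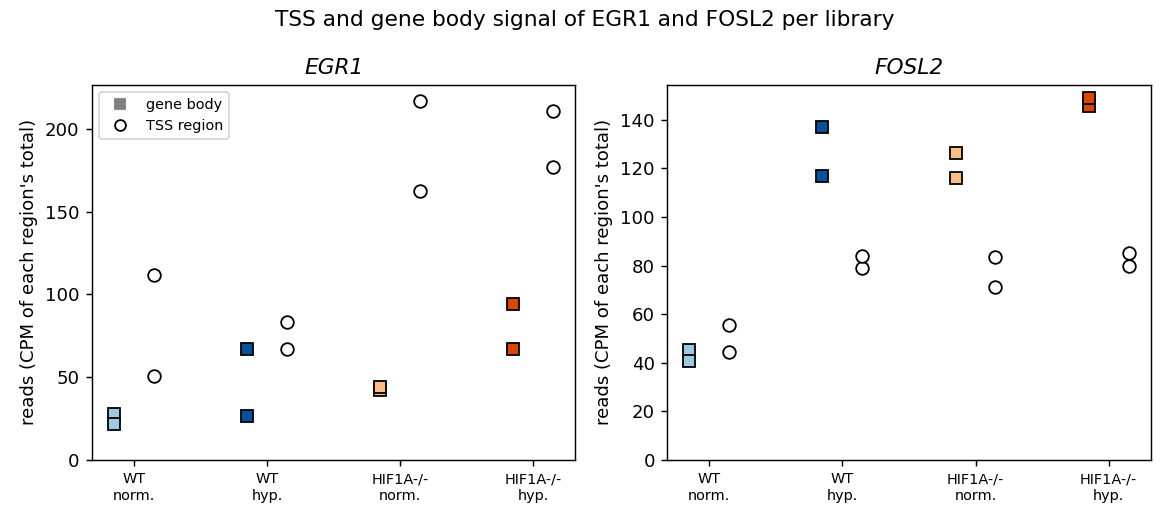
Reads in the gene body (filled squares) and TSS region (open circles) of EGR1 and FOSL2 in each library, as CPM of the total of each region's table, on axes from 0. EGR1 TSS signal is 162.5 CPM or more in the HIF1A-/- libraries and 111.6 CPM or less in the WT libraries, and FOSL2 signal is lowest in WT normoxia in both regions.

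The FOSL2 TSS region (chr2:28615728-28616278) held 44.4 and 55.6 CPM (WT) and 83.7 and 71.4 CPM (HIF1A-/-) in normoxia. It held 78.9 and 84.0 CPM (WT) and 79.7 and 85.1 CPM (HIF1A-/-) in hypoxia, so that WT normoxia was again the low group. The log2 differences were smaller than in the gene body, at 0.74 (SE 0.191, adjusted p = 0.922, edgeR) for WT hypoxia and 0.65 (SE 0.193, adjusted p = 0.328, edgeR) for HIF1A-/- against WT cells in normoxia. With the replicate block both were called (adjusted p = 0.0389 and 0.0391, edgeR), FOSL2 being the 1 member among 1.01% of regions in the first and 1 of 2 members, beside EGR1, among 4.29% in the second.

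FOS had 1 of the strongest TSS signals of the set relative to its gene body, at 335.4 and 249.4 CPM (normoxia) and 267.1 and 287.6 CPM (hypoxia) in WT cells. The HIF1A-/- libraries, at 370.7 and 392.5 CPM (normoxia) and 370.9 and 414.1 CPM (hypoxia), were above them without overlap. The genotype difference of FOS in hypoxia was 0.48 (SE 0.159, adjusted p = 0.227, edgeR), and with the replicate block it was called (adjusted p = 0.0254, edgeR), 1 of 2 members with EGR1 among 14.4% of regions. JUNB had the highest TSS signal, 733.2 to 876.1 CPM over the 8 libraries, with log2 differences of 0.00 to 0.15. The TSS responses to hypoxia called 0 members in WT cells (edgeR and DESeq2), with 0.046% of regions called, and 0 in HIF1A-/- cells, with 0% called. At an unadjusted p under 0.05 FOSL2 was the 1 member among 611 regions in WT cells, and JUN the 1 member among 135 regions in HIF1A-/- cells. The test of the difference between the responses called 0 members and 0.00657% of regions. TSS counts of ATF3 (6 to 28 reads) and BATF3 (2 to 15 reads) were too few to show differences of the size seen at FOS.

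**Figure D3:**
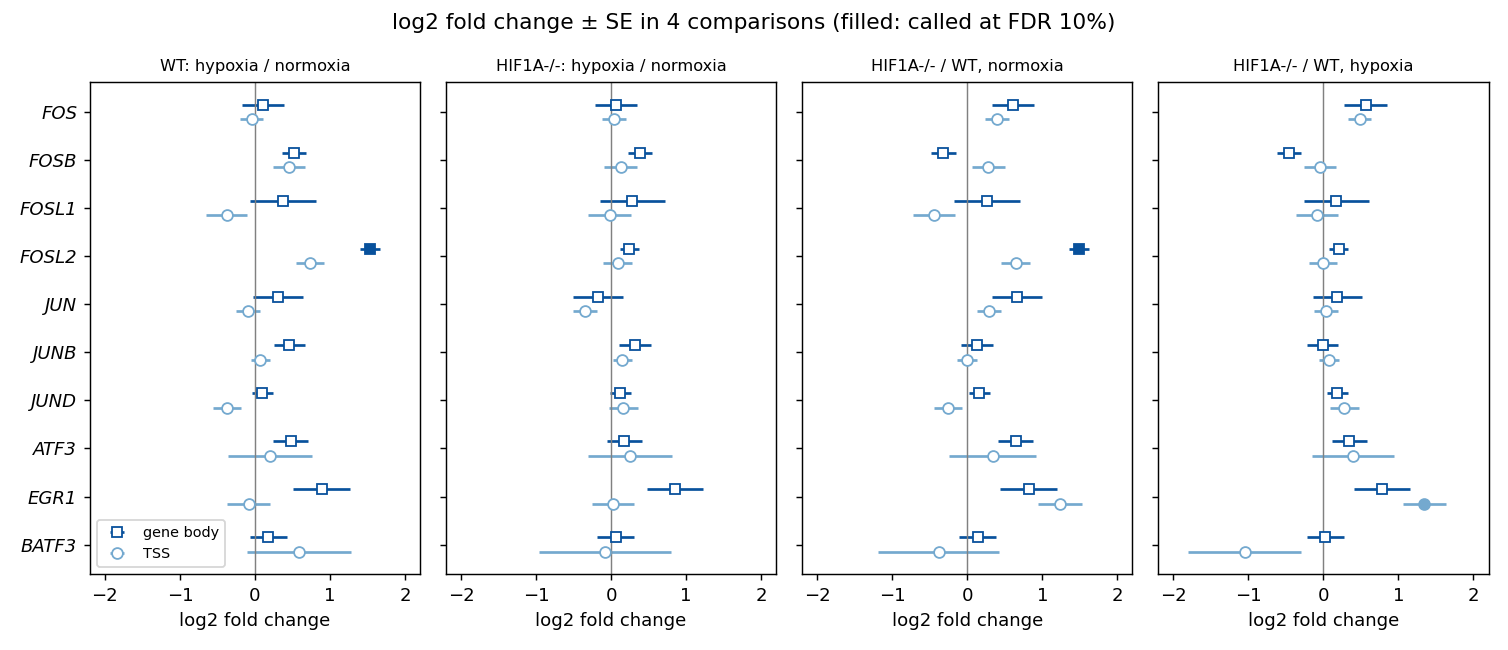
log2 fold change with its SE (edgeR, 2 libraries per group) of the gene body (squares) and TSS region (circles) of each gene in 4 comparisons, with filled symbols for calls at an FDR of 10%. The filled symbols are the gene body of FOSL2 for WT hypoxia (1.53) and for genotype in normoxia (1.49), and the TSS region of EGR1 for genotype in hypoxia (1.35).

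Per length of the counted region, gene body levels in WT normoxia ran from 34.6 reads per kb and 1000000 gene body reads (SD 3.62, n = 2) for JUND and 32.4 (SD 5.41, n = 2) for JUNB to 0.414 (SD 0.0475, n = 2) for BATF3. FOSL1 (9.37) and EGR1 (8.66) came next, then FOS (3.66), JUN (3.56), FOSB (2.65), FOSL2 (2.08) and ATF3 (1.42). JUND and JUNB overlapped, as did FOSL1 and EGR1, and FOS and JUN, while the other neighbours in this order were apart in both libraries. In WT hypoxia FOSL2, at 6.12 (SD 0.691, n = 2), was the fifth of the 10 by mean, after the eighth place in normoxia. Its libraries there (5.63 and 6.61) overlapped those of JUN (2.81 and 6.20), the next below it.

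The pausing index (PI), the reads per bp in the TSS region over the reads per bp in the gene body of the same library, differed widely among the 10 genes. FOS had a PI of 13.7 to 39.3 and JUN of 11.1 to 29.9 over the 8 libraries, and FOSB of 13.7 to 21.3. JUNB (5.04 to 10.4), FOSL2 (3.05 to 10.8), FOSL1 (1.32 to 5.37) and EGR1 (1.61 to 4.44) followed. JUND (0.702 to 1.80), ATF3 (0.436 to 1.50) and BATF3 (0.404 to 2.30) had about as many reads per bp in the gene body as in the TSS region. The median PI of the 14494 genes tested in both regions was 9.76 to 11.5 in WT libraries and 5.83 to 9.36 in HIF1A-/- libraries, so FOS stood between the 74.1 and 84.9 percentile of these genes and JUND between 7.99 and 13.5. The lower HIF1A-/- medians came with the lowest TSS totals, 2783581 and 3011758 reads in replicate 1 of the HIF1A-/- groups, and the part of these totals in the PI was not tested.

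The FOSL2 PI of WT cells was 7.89 and 10.8 (normoxia) and 6.36 and 5.82 (hypoxia), and that of HIF1A-/- cells 3.43 and 4.31 (normoxia) and 3.05 and 4.54 (hypoxia). WT normoxia was the highest group. Relative to the total of each table, the log2 change in PI was -0.79 (SE 0.230, adjusted p = 0.695, edgeR) for WT hypoxia and -0.84 (SE 0.233, adjusted p = 0.388, edgeR) for HIF1A-/- against WT cells in normoxia. No member was called for PI in WT hypoxia (0.193% of genes called), in HIF1A-/- hypoxia (0%), or between genotypes in normoxia (0.0759%) or hypoxia (0.718%). The members at an unadjusted p under 0.05 (edgeR) were 3, 1, 2 and 0 in these comparisons, among 753, 229, 917 and 1741 of the 14494 genes. With the replicate block the FOSL2 difference between genotypes in normoxia was called (-0.84, adjusted p = 0.0872, edgeR), 1 member among 0.683% of genes. The EGR1 PI was 4.44 and 2.57 (normoxia) and 3.27 and 1.61 (hypoxia) in WT cells, with overlap, and 3.32 and 3.81 (normoxia) and 2.39 and 2.03 (hypoxia) in HIF1A-/- cells, without overlap. Relative to the table totals, the log2 change of the EGR1 PI in hypoxia was -0.78 (SE 0.326) in WT and -0.80 (SE 0.312) in HIF1A-/- cells, neither called (adjusted p = 0.872 and 1, edgeR), and it ran from -1.25 to -0.29 in WT and from -1.15 to -0.47 in HIF1A-/- cells when 1 library was left out.

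**Figure D4:**
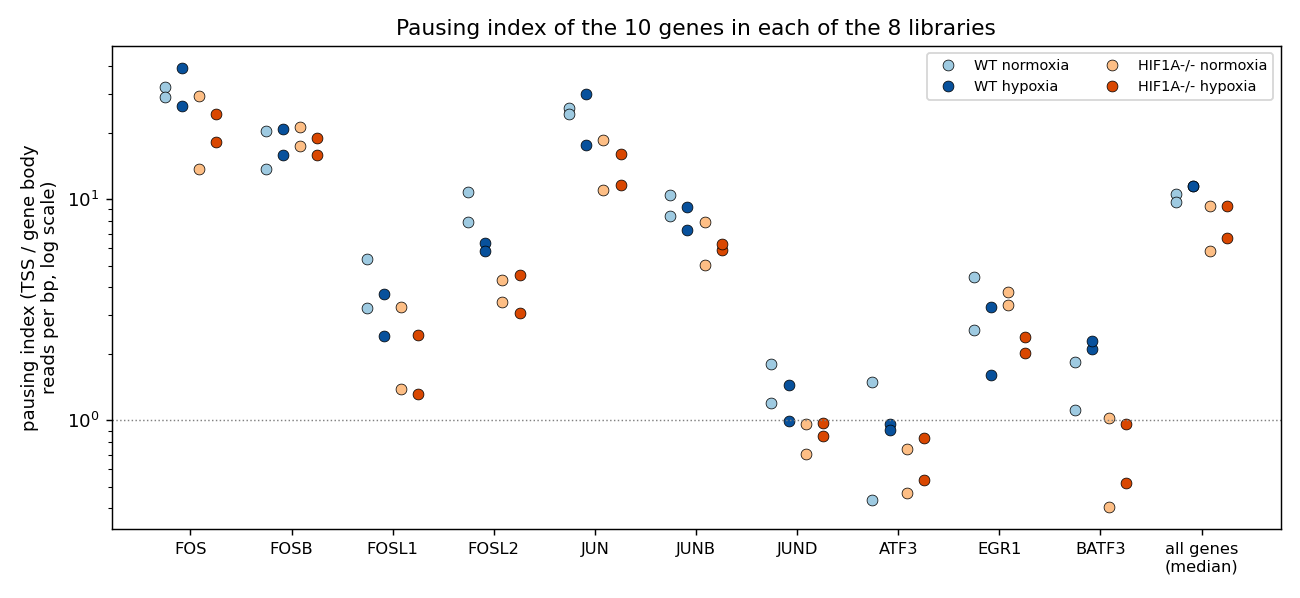
Pausing index (TSS over gene body reads per bp, log axis) of the 10 genes and the median of all 14494 genes, with 1 point per library coloured by group and a dotted line at 1. FOS, FOSB and JUN lie above the median of all genes of the same library, and JUND, ATF3 and BATF3 lie near 1.

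The libraries of a group did not rank alike at these genes. In WT hypoxia, replicate 2 exceeded replicate 1 at 9 of the 10 genes, by a median of 0.32 on the log2 scale, with 1.09 at JUN and 1.31 at EGR1, whereas the median over all 16686 genes was 0.00. The same median for the 10 genes was -0.13 for the WT normoxia pair and -0.09 and 0.07 for the HIF1A-/- pairs in normoxia and hypoxia. FOSL2 was close between the HIF1A-/- replicates, with log2 differences of 0.01 in normoxia and -0.07 in hypoxia. Between the WT replicates it differed by -0.20 in normoxia and 0.20 in hypoxia. The median absolute difference of the 10 genes in these WT pairs was 0.20 and 0.35.

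Of 30 other immediate early genes tested, 0 were called by edgeR in WT hypoxia (0.431% of all genes called). There were 5 at an unadjusted p under 0.05, among 769 of all 16686 genes. In this comparison 18 had a fold change above 0, with a median of 0.13. Between genotypes in normoxia 27 of the 30 were above 0, with a median of 0.41 against -0.01 over all genes. Of these, 2 were called, both higher (1.78% of all genes called). PLK2, a polo-like kinase induced by p53 and by serum, was read at 20.8 and 28.2 CPM in WT and 93.9 and 76.4 CPM in HIF1A-/- cells in normoxia (log2 1.81, adjusted p = 0.0167, edgeR). KLF2, a zinc finger factor of quiescent cells, was read at 11.8 and 19.4 CPM in WT and 46.5 and 45.7 CPM in HIF1A-/- cells (log2 1.57, adjusted p = 0.0181, edgeR). In hypoxia 5 were called higher in HIF1A-/- cells and 0 lower (4.26% of all genes called), with KLF2 at 2.32, PLK2 at 1.87 and PLK3 at 0.75. The other calls were NR4A1, an orphan nuclear receptor (1.18), and ARC (0.86), which are named after their values were seen. Against normoxia, 0 of the 30 were called in HIF1A-/- cells, as were 0% of all genes (1 at an unadjusted p under 0.05, among 347 genes). Of the 30, 23 had a fold change above 0 in these cells, with a median of 0.14. With the replicate block 2 were higher and 1 lower in WT hypoxia (5.51% of all genes called), 9 were higher between genotypes in normoxia (10.3% called), and 10 were higher and 1 lower in hypoxia (28.2% called).

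Among 21 other bZIP genes tested, 1 was called without the replicate block, in WT hypoxia (0.431% of all genes called). This was MAFF, a small MAF protein without an activation domain. With the block 2 were called there, both higher (5.51% of all genes called). Between genotypes 1 was higher and 1 lower in normoxia (10.3% called), and 3 were higher and 2 lower in hypoxia (28.2% called). WT cells had 11.7 and 12.7 CPM of MAFF before and 30.2 and 39.0 CPM after hypoxia, and HIF1A-/- cells 21.6 and 16.4 CPM before and 34.1 and 33.5 CPM after. Its log2 fold change in WT cells was 1.47 (SE 0.215, adjusted p = 0.0515, edgeR). WT normoxia was the low group for MAFF as for FOSL2, and the hypoxia libraries were above the normoxia libraries in both lines. The list as a whole had a median of -0.02 in WT hypoxia, equal to that of all genes. Of 21 upstream factors and kinases (serum response factor, its ELK and MKL partners, MAP kinases and the EGR repressors NAB1 and NAB2), 0 were called without the replicate block in any of the 5 gene body comparisons (0% to 4.26% of all genes called). At an unadjusted p under 0.05 there were 5 in WT hypoxia, 1 in HIF1A-/- hypoxia, 2 between genotypes in normoxia, 3 in hypoxia and 1 for the difference between responses. In the same order, 769, 347, 1502, 2628 and 227 of all 16686 genes passed this threshold. With the block 4 were higher and 2 lower in WT hypoxia (5.51% of all genes called). In HIF1A-/- against WT cells 1 was higher in normoxia (10.3% called), and 5 were higher and 3 lower in hypoxia (28.2% called).

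Of 24 known AP-1 targets tested, 0 were called by edgeR in either line's response to hypoxia (0.431% of all genes called in WT and 0% in HIF1A-/- cells). At an unadjusted p under 0.05 there were 2 in WT cells, among 769 genes, and 0 in HIF1A-/- cells, among 347 genes. Between genotypes in normoxia 1 was called higher and 3 lower in HIF1A-/- cells (1.78% of all genes called), although 16 of the 24 had a difference above 0. EREG, which encodes the EGF receptor ligand epiregulin, was read at 527.9 and 721.9 CPM in WT and 106.5 and 121.3 CPM in HIF1A-/- cells (log2 -2.46, adjusted p = 0.00175, edgeR). AREG, the neighbouring ligand gene amphiregulin, was read at 8.89 and 14.2 CPM in WT and 2.36 and 3.12 CPM in HIF1A-/- cells (log2 -2.08, adjusted p = 0.0477, edgeR). CD44, a hyaluronan receptor, was read at 435.0 and 534.3 CPM in WT and 237.3 and 230.6 CPM in HIF1A-/- cells (log2 -1.05, adjusted p = 0.0307, edgeR). The same 3 were the calls in hypoxia (4.26% of all genes called), all lower, with EREG at -2.32, AREG at -1.89 and CD44 at -0.86. PLAUR, the urokinase receptor gene, named after its value was seen, was the target that was higher in normoxia (log2 1.08, adjusted p = 0.0915, edgeR). With the replicate block 1 target was lower in WT hypoxia (5.51% of all genes called). Between genotypes 5 were higher and 4 lower in normoxia (10.3% called), and 9 were higher and 4 lower in hypoxia (28.2% called). In normoxia the called targets thus moved both ways between genotypes while FOSL2 was higher. In hypoxia FOSL2 was not called between genotypes, and the called targets moved both ways only with the block. The share of any AP-1 protein in these differences was not tested.

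**Figure D5:**
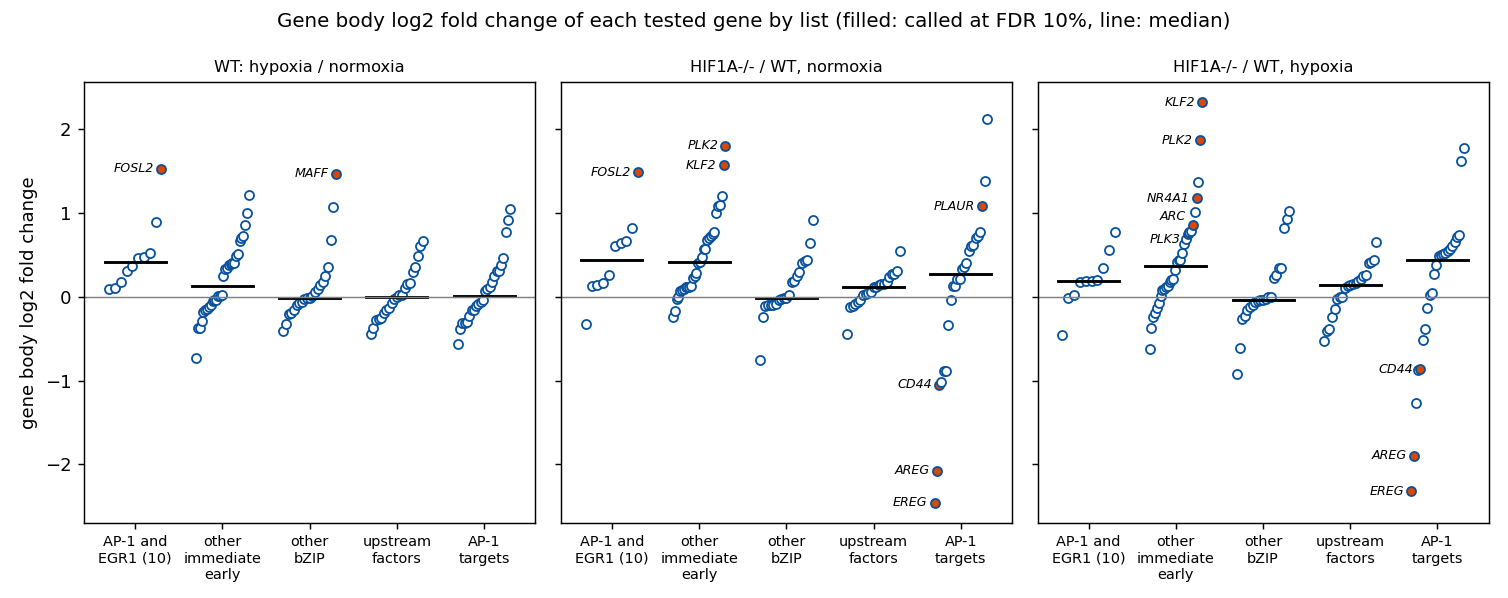
Gene body log2 fold change (edgeR) of each tested gene, by list, for WT hypoxia and for HIF1A-/- against WT cells in normoxia and in hypoxia, with called genes filled and named and a line at each list's median. Without the replicate block, FOSL2 and MAFF are the calls in WT hypoxia, and between genotypes KLF2 and PLK2 are higher and EREG, AREG and CD44 lower in both conditions.

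Over the 8 libraries, the genes whose log2 gene body CPM was most like that of FOS were UHRF1BP1L, LATS2 and ZNF275 (Pearson r 0.94, 0.94 and 0.93), among 13023 genes with a mean of at least 5 CPM. For JUN they were ZNF449, YES1 and DOCK3 (0.95, 0.92 and 0.91), for EGR1 CBR3, PCIF1 and VCL (0.97, 0.97 and 0.96), and for ATF3 OTUD5, RABAC1 and MAPK8IP1 (0.98, 0.97 and 0.96). For FOSL2, added after its values were seen, they were ICAM5, SHB and SLC2A1 (0.96, 0.94 and 0.94). Among the 10 genes themselves, r was 0.88 between FOS and JUN, 0.85 between FOSL2 and ATF3, and 0.83 between FOS and EGR1, and it was -0.46 between FOS and FOSB. These r describe 8 libraries that share 4 conditions and carry no p.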

How the data were processed

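Reads per gene body and per TSS region were deposited as counts. The authors trimmed reads from merged sequencing runs, aligned them to GRCh37/hg19 with HISAT2 2.1.0 without splicing, filtered on mapping quality with SAMtools 1.5 and counted them with featureCounts (Subread 1.6.2) in 1 TSS (the most active) and the shortest gene body per RefSeq gene. Versions are from the submitters' processing notes.

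Genes with over 0.5 CPM in at least 2 libraries were tested with edgeR 4.0.16 (TMM normalisation, quasi-likelihood, 4 group means over 8 libraries, Benjamini-Hochberg over all genes tested, R 4.3.3); 16686 gene bodies and 15212 TSS regions passed, all 10 genes in both. PI changes came from a fit of the 16 columns of both tables with a term for each library. Scripts were tested on simulated counts. Intervals cover counting and replicate error of 2 libraries per group only.

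Replicate numbers, shared by the groups' labels, paired the libraries: deviations from the group means correlated between libraries of the same number for each of the 6 pairs of groups (r 0.48 to 0.79 in gene bodies, 0.22 to 0.52 at TSSs). The reported fit has no term for this pairing, so its SEs include the deviation shared by libraries of the same number. The replicate block was an alternative, as were DESeq2 1.42.0, library totals without TMM, other filters, only the groups compared, and leaving out each library. DESeq2 with the block was added after seeing the data.

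The 10 genes and the lists were chosen with earlier results of these data known. Named from the lists were called genes, up to 3 per list and comparison by p, other names being marked in the text. SRF and KRT18 stand in 2 lists each. Motifs, annotation (GENCODE v44 lifted to GRCh37) and sequences were read from GRCh37.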

Additional observations from a re-analysis of the deposited data

Results flagged for a closer look

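The response of FOSL2 gene body signal to hypoxia differed between WT and HIF1A-/- cells, by 1.29 on the log2 scale in the interaction term of the fit with the replicate block (adjusted p = 0.0168, edgeR). Mean FOSL2 signal (n = 2) was 43.0 CPM (normoxia) and 127.0 CPM (hypoxia) for WT, and 121.3 CPM (normoxia) and 147.4 CPM (hypoxia) for HIF1A-/- cells. Without the block the difference was 1.28 (adjusted p = 0.156, edgeR), and leaving out 1 library at a time it was 1.18 to 1.39 with adjusted p of 0.204 to 0.920.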

How the results depend on the processing

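No member changed direction where it was called. A share of all genes called is given for the reported fit and the block alone. Calls under the other settings are therefore not set against such a share and are listed as a description. For WT hypoxia in gene bodies, 1 member was called in the reported fit, 2 with the replicate block (FOSB and FOSL2), 3 with DESeq2 and the block (JUNB in addition), and 0 to 1 when 1 library was left out. For the difference between responses, 0 were called, and 1 (FOSL2) with the block, DESeq2, DESeq2 with the block, or no filter on low counts. Between genotypes in normoxia, DESeq2 with the block called 2 gene bodies (ATF3 and FOSL2) against 1. Between genotypes in hypoxia, the block and DESeq2 with the block each called 1 (FOSB) against 0, and leaving out 1 library gave 0 to 1 (EGR1). At TSSs the block called 1 against 0 in WT hypoxia and 2 against 0 between genotypes in normoxia. In that comparison DESeq2 and no filter each called 1 (EGR1), as did some fits without 1 library (0 to 1). At TSSs between genotypes in hypoxia, the block, DESeq2 with the block, no filter and only the groups compared each called 2 (EGR1 and FOS) against 1, and leaving out 1 library gave 0 to 1. For PI between genotypes in normoxia the block called 1 (FOSL2) against 0. The block changed no other member's call. Across all genes it moved the gene body calls from 72 to 919 in WT hypoxia, from 0 to 6 in HIF1A-/- hypoxia, from 9 to 64 for the difference between responses, from 297 to 1722 between genotypes in normoxia and from 711 to 4706 in hypoxia. The common dispersion fell with it to 0.0110 from 0.0376. The cause of the other changes was not tested. With 2 libraries per group and no block, SEs at FOSL1, EGR1 and JUN were 0.329 to 0.437 in the pairwise gene body comparisons. Log2 differences well above 1 SE were also not called there, such as 0.89 at EGR1 in WT hypoxia and 0.67 at JUN between genotypes in normoxia.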
